A study of Homo sapiens with 12 samples.

Results

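The baseline exon and junction signal of the scrambled-hairpin control line was described from 3 arrays, with no comparison to any other cells. HEK293T, which was derived from human embryonic kidney and expresses the large T antigen of SV40, was transduced with lentivirus expressing a scrambled short hairpin RNA (SCR) and selected with puromycin so that the hairpin was stably integrated. These are 3 of the 12 samples of the series, and the line with a hairpin against PPIL3 and the samples labelled as gene-level were not used here. The members were the exon and junction probe sets to which the annotation gives exactly 1 gene symbol, 672085 of the 913055 on the array. Of these, 385548 target exonic regions (out of 573909) and 286537 target junctions between exons (out of 339146). The labels do not say that the 3 samples came from separate transductions, so the spread between arrays may be that of 1 line grown or hybridized 3 times, and no p-value is given because there is only 1 group.

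A human pre-mRNA is spliced by joining exons and removing the introns between them, and most genes can be joined in more than one way. Cassette exons are included or skipped, mutually exclusive exons replace one another, and alternative first and last exons come from different promoters and polyadenylation sites. Regulators such as SR proteins and hnRNPs bind near splice sites and shift the choice between cell types, which is why one gene's exons need not all be present in the RNA of one line. The Human Transcriptome Array 2.0 has short probes for each annotated exonic region, and other probes that span pairs of exons, including pairs joined only in rare or foreign-tissue transcripts.

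All values are log2 signals. For each probe set the relative signal was obtained by subtracting the average of all exon probe sets of that gene on the same array, so that 0 is the gene's own exon mean and -1 is a signal 2-fold below it. A panel of 82 genes of other tissues, 72 of them measured by 1726 exon probe sets, served as a measure of signal without much transcript. The 95th percentile of the panel's gene means lay between 7.71 and 7.75 on the 3 arrays, and the 9372 genes with at least 5 exon probe sets and a mean above it on every array were kept, with 224157 exon and 167653 junction probe sets. The panel was not uniformly dark: its gene means ran from 3.80 to 8.31, and 4 panel genes were among those kept. A probe set was called near background where its relative signal was at most -1 and its value no higher than the 90th percentile of the panel's probe sets on every array, and bright where its relative signal was at least 2 on every array. That percentile was 8.45, 8.42 and 8.40 for exon probe sets on SCR arrays 1, 2 and 3, and 9.16, 9.16 and 9.14 for junction probe sets.

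A limit of these data comes before any result. The array's own background probes, which match no human transcript, were not equally dark. Those with 3 G or C bases of 25 read 2.76 ± 0.06 (SD, n = 3), those with 12 read 3.68 ± 0.01, those with 16 read 6.24 ± 0.05, those with 20 read 7.81 ± 0.05 and those with 25 read 12.06 ± 0.07. The exon bounds of the panel thus lie between the background of probes with 21 and with 22 G or C bases, and the junction bounds between 22 and 23. Of the exon probe sets kept, 1881 (0.839%) were no higher than the background at 12 G or C bases and 7125 (3.18%) were above that at 25. The sequences of the exon and junction probes were not used here, so a difference between 2 probe sets of a gene cannot be split into RNA and probe; a dim probe set is not shown to be a skipped exon, and relative signal is given as a description of each probe set and not as inclusion.

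**Figure D1:**
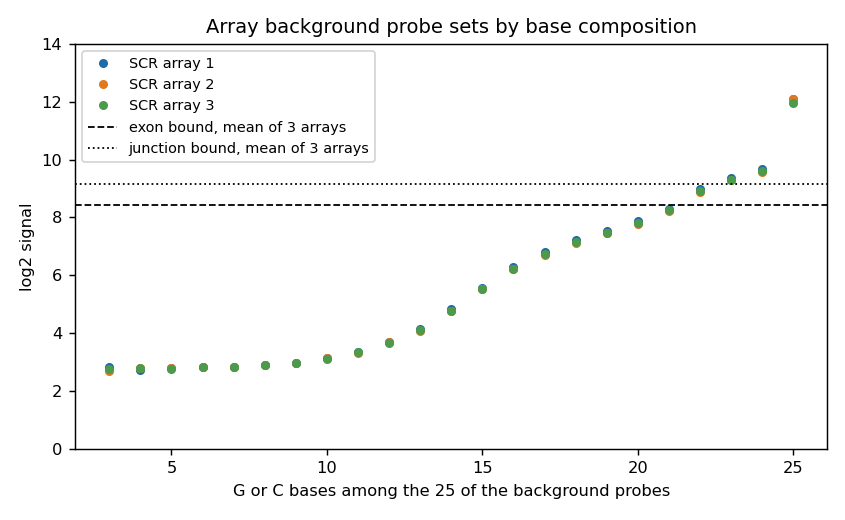
Log2 signal of the array's background probe sets on the 3 SCR arrays (y) against the number of G or C bases among their 25 (x). Points are single arrays; the dashed and dotted lines are the exon and junction bounds averaged over the 3 arrays. Signal stays near 3 up to 10 G or C bases and reaches 12.06 at 25.

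The labelled line was checked on marker genes. Of 9 measured genes known from HEK293T and its embryonic kidney and neuronal features, 8 passed the gene-level threshold. The highest were the intermediate filament genes VIM at 10.25 and NEFL at 9.57 and the cadherin gene CDH2 at 9.78. KRT18 was at 8.82 and KRT8 at 8.47. EYA1 at 8.25, LHX1 at 8.11 and NEFM at 8.07 passed but lay below the panel's highest gene mean of 8.31. PAX2, at 7.78, did not pass on every array. None of 7 measured immune markers passed; their gene means ranged from 4.55 to 7.38, with the pan-leukocyte gene PTPRC at 4.59. Among 7 fibroblast markers only COL1A1 passed, and the others ranged from 4.33 for LUM to 7.24 for PDGFRA. Array medians over all probe sets were 7.58, 7.56 and 7.56.

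Within a gene, exon probe sets differed far more than the same probe set differed between arrays. The SD of relative signal over a gene's exon probe sets had a median of 1.53 over the 9372 genes, with 1.18 and 1.90 at the quartiles. In contrast, the median SD of 1 exon probe set over the 3 arrays was 0.07, and 95 in 100 exon probe sets had an SD of at most 0.22. Junction probe sets were noisier, with a median SD of 0.12 and a 95th percentile of 0.43. Pearson's r between pairs of arrays lay between 0.995 and 0.996 over the exon probe sets and between 0.991 and 0.993 over the junction probe sets; these points share genes and libraries and are no independent replicates. The spread within genes rose slightly with gene level, from a median of 1.40 in the 1875 genes of lowest level to 1.63 in the 1875 of highest.

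Across all retained genes, 43570 exon probe sets were near background, 19.4% of those measured, and 14935 were bright, 6.66%. Junction probe sets were called near background more often, though against higher bounds of 9.14 to 9.16. Of them 56706 were near background, 33.8%, and 13724 were bright, 8.19%. The median relative signal was 0.21 for exon and -0.23 for junction probe sets, and the lowest 5 in 100 lay below -3.07 and -5.07. At least 1 exon probe set was near background in 8857 genes, 94.5% of them, and 5732 genes (61.2%) held a bright one. The exon bounds, 8.40 to 8.45, were high for many of these genes. Where a gene's level is less than 1 above the bound, any probe set at -1 or lower is already under it. The call then says only that the signal was at least 2-fold below the gene's mean. Every gene at a level of 7.75 to 8.98 was of this kind, among them the 1875 of lowest level, FN1 (8.55), MDM4 (8.28) and TPM3 (8.85). So were genes at levels of 8.98 to 9.52 wherever the level was less than 1 above the bound. A further 7067 exon probe sets met the near-background rule on 1 or 2 arrays only and were not counted. These counts rest on the bound: with the background at 12 G or C bases as the bound, an alternative chosen after seeing the data, 1466 exon and 6484 junction probe sets were near background.

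**Figure D2:**
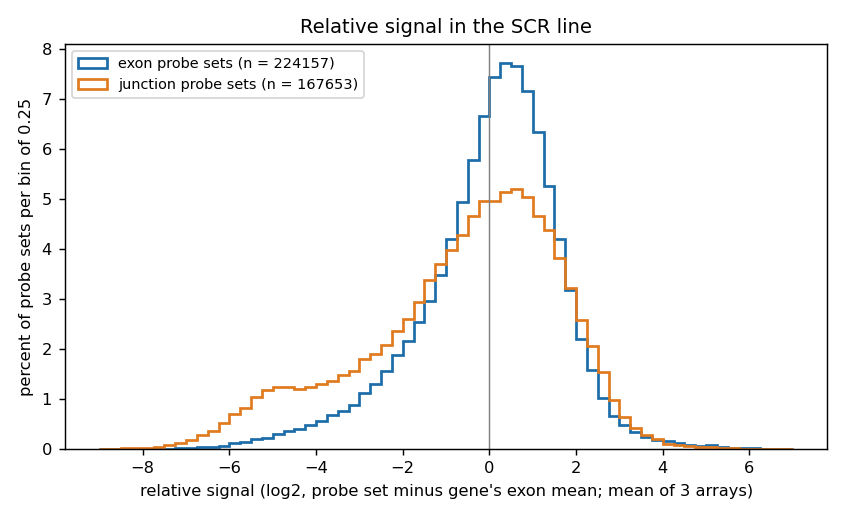
Relative signal (x, log2, mean of the 3 SCR arrays) against the percent of probe sets in each bin (y), for the 224157 exon and 167653 junction probe sets of retained genes. The junction curve has the longer dim tail, with a 5th percentile of -5.07 against -3.07 for exons.

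The probe set numbers followed the genome from gene to gene. Genes were read from 5′ to 3′ on the premise that the numbers also follow the genome within a gene, which was not checked. Chromosome 8 was not covered by the check between genes. Over 46 combinations of chromosome and strand, Spearman's correlation of a gene's lowest probe set number with its start in RefSeq (GRCh38.p14) had a median of 1.00 and was at least 0.99 in 37, the lowest being 0.92. In the 7691 retained genes with a known strand, each gene's exon probe sets were split into 5 equal parts, whose mean relative signals were -0.07 ± 0.01 (SD over 3 arrays), 0.17 ± 0.01, 0.20 ± 0.01, 0.10 ± 0.00 and -0.42 ± 0.01 from 5′ to 3′. Both ends were thus dimmer than the middle, the 3′ end more so. The 5′-most probe set of a gene averaged -0.41 ± 0.04 and was near background in 31.8% of genes, and the 3′-most averaged -1.22 ± 0.01 and was near background in 43.2%, against 16.5% in the middle part. Plus-strand and minus-strand genes, which are numbered in opposite directions, gave nearly the same values: -1.23 and -1.21 for the 3′-most probe set and -0.42 and -0.40 for the 5′-most. The sample labels state that cDNA was primed with poly(T) and random oligomers and the series text states random hexamers; the part of priming in this profile was not tested. The difference of the last minus the first part was -0.35, and it was -0.58 when genes down to a level of 5 were kept.

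**Figure D3:**
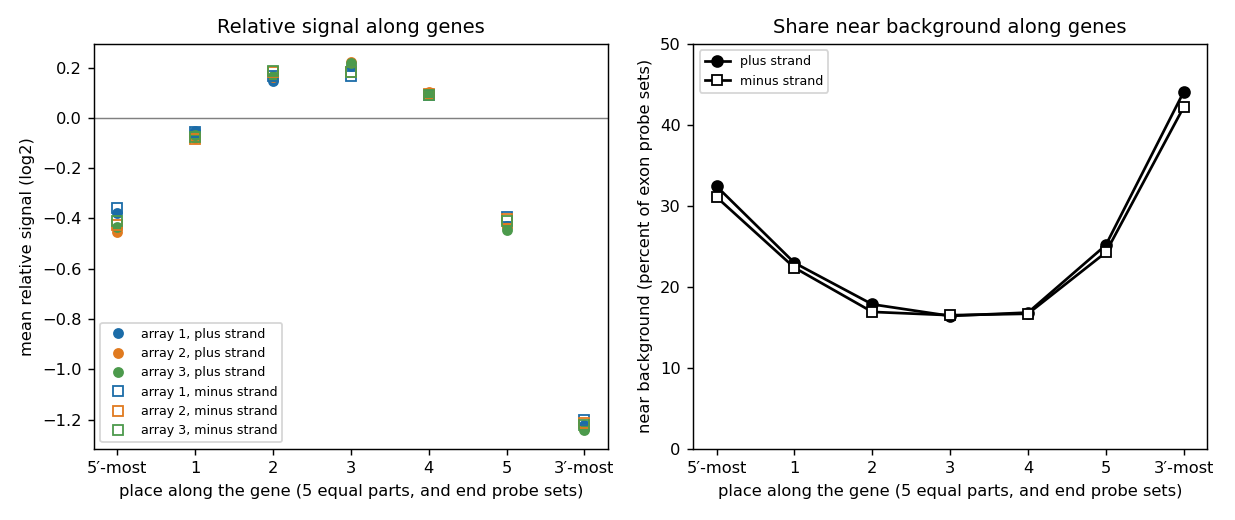
Mean relative signal (left, log2) and percent of exon probe sets near background (right) by place along 7691 genes: the 5′-most probe set, the 5 equal parts, and the 3′-most probe set. On the left each point is 1 SCR array, filled for plus-strand and open for minus-strand genes; on the right the points are strands. The 3′-most probe sets lie at about -1.2 on all arrays and both strands.

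First exons showed how base composition moved with these values. In human genes many promoters lie in CpG islands, so that the transcribed bases after the start are rich in G and C. RefSeq's promoter windows, which give 1 start per gene although many genes have several, were read for the 50 bases after that start. Where these held at most 50% G and C, the 5′-most exon probe set was near background in 218 of 453 genes (48.1%), with a median log2 signal of 7.60. The share near background was 42.0%, 33.8% and 24.6% at 50 to 60%, 60 to 70% and 70 to 80%. Above 80% G and C it was 14.8% (87 of 588 genes), the median log2 signal was 9.05, and 21.6% of the probe sets were bright against 6.40% in the lowest group. Across the 7691 genes Spearman's rho between G and C content and log2 signal was 0.24 and Pearson's r 0.24; genes share arrays and probe design, and the probes themselves may lie elsewhere in the exon. How much of this is probe background and how much is RNA was not tested.

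With all genes pooled, dim probe sets had a dim neighbour more often than other probe sets did. Of 205581 neighbouring pairs by number, the next exon probe set was near background in 26.8% when the first was, and in 16.8% when it was not. The pooled genes had unlike shares near background, such as none in 515 genes and 50% in TPM3. How much of the gap lies within genes was not tested. Stretches of 2 or more numbered 7261, in 4749 genes, and 232 of them held 5 or more probe sets. The longest, of 16, was in GNAS; with the bound at the panel's 75th percentile the longest stretch of GNAS was 9.

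Genes known to be alternatively spliced were grouped in 8 lists by role, 289 genes in all. Not all of them had an exon probe set of 1 symbol. Those that did were 36 of 40 for adhesion and cytoskeleton, 35 of 36 for receptors and signalling and 29 of 30 for vesicle traffic. They were 38 of 44 for splicing regulators, 32 of 35 for apoptosis and cell cycle and 26 of 30 for metabolism and mitochondria. For neural and muscle exons they were 32 of 34, and for chromatin and transcription 34 of 40. Of the 289 genes, 225 were retained. Their 8658 exon probe sets held 1858 near background (21.5%) and 738 bright (8.52%, against 6.66% over all retained genes). Of their 6959 junction probe sets, 36.2% were near background, against 33.8% over all retained genes. By list, the share of exon probe sets near background ran from 19.6% for apoptosis and cell cycle to 23.2% for metabolism and mitochondria, so every list was close to the 19.4% of all retained genes. Bright exon probe sets were spread less evenly, from 5.20% for chromatin and transcription to 14.5% for splicing regulators and 15.8% for metabolism and mitochondria. Just 3 of the 225 genes had no exon probe set near background: SRSF1, an SR protein, BAK1, a pro-apoptotic BCL2 family member, and ACLY, which makes cytosolic acetyl-CoA.

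**Figure D4:**
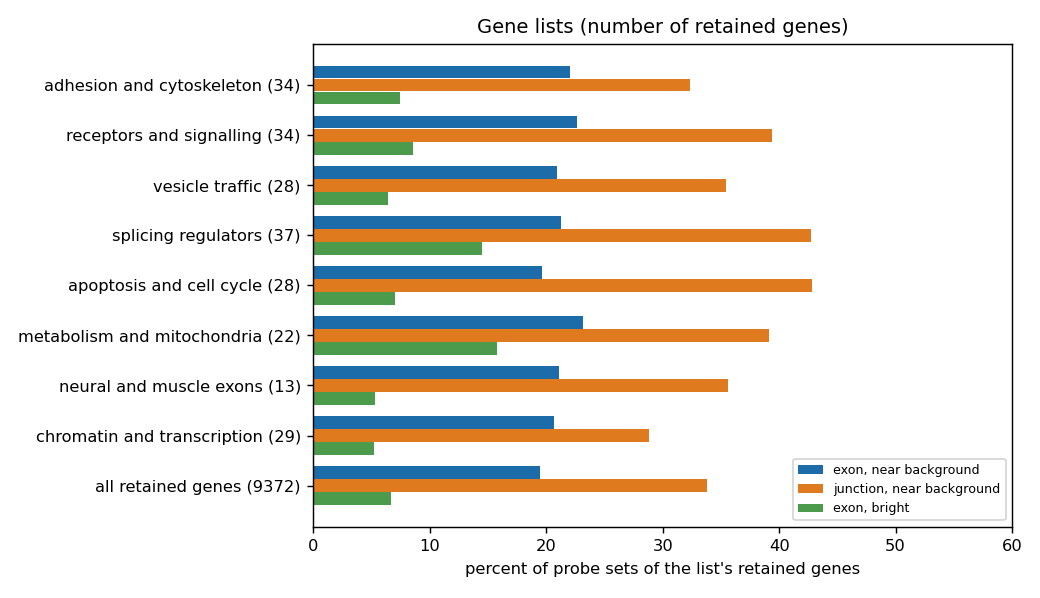
Percent of probe sets (x) that were near background or bright in the SCR line, for the retained genes of 8 lists of alternatively spliced genes and for all retained genes (y; number of retained genes in parentheses). Blue is exon near background, orange junction near background and green exon bright. Exon shares near background lie between 19.4% and 23.2%.

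Adhesion and cytoskeletal genes held 34 retained members of 40, with 368 of 1673 exon probe sets near background. Fibronectin, FN1, an extracellular matrix protein with regulated extra domains, had 25 of 87 exon probe sets near background, 15 of them in 5 stretches of 2 to 5, and 20 bright. Its gene level was 8.43, 8.59 and 8.62 on the 3 arrays. From the 5′ end, probe sets 1 to 11 lay between 7.86 and 11.64, while probe set 12 read 4.53 and probe set 17 (PSR02044185.hg.1) read 3.07, 3.53 and 3.66, its neighbours being at 11.26 and 11.13. A stretch of 5, probe sets 48 to 52, averaged 4.76, 4.76 and 4.74 on the 3 arrays between neighbours at 9.97 and 10.16.

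Tropomyosins, which line actin filaments, are built from alternative first, internal and last exons. In TPM3, 24 of 48 exon probe sets were near background and 18 were bright. Its first 10 probe sets averaged 6.23, 6.10 and 6.16, with 9 near background; probe sets 15 to 21 averaged 12.53, 12.52 and 12.52; probe sets 35 to 40 fell to 6.56, 6.54 and 6.61; and 41 to 47 were again at 12.24, 12.20 and 12.17. All of probe sets 15 to 21 and 41 to 47 were bright, and all of 35 to 40 were near background. TPM1 had 8 of 33 near background, with relative signal from -5.21 (probe set 30) to 2.86 (probe set 18). In MYL6, a myosin light chain gene, 12 of 30 were near background, the lowest at -2.48 and the highest at 2.58.

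The actin regulator ENAH had 7 of 32 near background. Its probe set 4 (PSR01059266.hg.1) read 3.31, 3.20 and 3.43, and probe set 24 (PSR01059244.hg.1) read 12.78, 12.79 and 12.75. For NUMB, an inhibitor of Notch signalling, 9 of 26 were near background, from -4.70 at probe set 15 to 5.27 at probe set 2. The hyaluronan receptor CD44, a standard example of variable exons, did not pass the gene threshold, with means of 6.78, 6.78 and 6.70 over 30 exon probe sets, 23 of which were at or below the exon bound on every array.

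Receptor and signalling genes held 34 retained members of 36, with 308 of 1362 exon probe sets near background (22.6%). GNAS, which encodes the stimulatory G protein alpha subunit from an imprinted locus with several alternative first exons, had 28 of 73 near background and 22 bright. The first 22 probe sets averaged 6.73, 6.68 and 6.69 on the 3 arrays, with 20 near background and none bright. The other 51 averaged 10.74, 10.69 and 10.69, and the step fell between probe set 22 and probe set 23, which read 12.22. All 22 bright probe sets lay in that second stretch, up to 13.85 for probe set 72. PTK2, the focal adhesion kinase, had 40 of 111 near background in 7 stretches, the longest of 9, and relative signal from -5.34 to 4.67.

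Fibroblast growth factor receptors switch ligand specificity through mutually exclusive exons. In FGFR2, 12 of 51 exon probe sets were near background and 3 bright. The 5′-most (PSR10022641.hg.1) read 14.51, 14.55 and 14.49, a relative signal of 6.22, and the lowest, probe set 44, was at -2.94. For FGFR1, 17 of 57 were near background, and in number order its lowest and highest probe sets were neighbours, at -4.55 and 5.16. The insulin receptor INSR, with 1 cassette exon that sets its isoforms, was more even: 3 of 26 were near background and none bright, from -3.83 to 1.39; without SCR replicate 1 its share rose from 11.5% to 19.2%. The amyloid precursor APP had 10 of 38 near background, from -6.40 for probe set 32 to 2.52 for probe set 31 beside it.

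Vesicle traffic genes held 28 retained members of 30, with 227 of 1087 exon probe sets near background (20.9%). In the clathrin light chain gene CLTA, 7 of 16 were near background, including the last 3, and relative signal ran from -2.31 to 2.82. ITSN1, an endocytic scaffold with a short and a neuronal long form, had 27 of 77 near background; its last 6 probe sets averaged 6.56, 6.61 and 6.58 and all 6 were near background, and its highest, probe set 20, was at 4.99 and its lowest at -5.22. BIN1, a membrane-bending protein, had 4 of 29 near background, from -2.25 to 3.25. The dynamin DNM2 had 6 of 31, from -3.52 to 2.49, and the SNARE gene VTI1A had 7 of 20, from -2.14 to 2.52.

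Splicing regulators often carry poison exons, whose inclusion brings a premature stop codon. Of 44 listed, 37 were retained, with 251 of 1181 exon probe sets near background (21.3%). A further 171 were bright (14.5%, against 6.66% over all retained genes). SRSF3 had 1 of 13 near background, its 5′-most, at 5.95, 5.70 and 5.91 against a gene level of 10.51; the next was at 12.40, and without SCR replicate 2 the share rose from 7.69% to 15.4%. In TRA2B, 7 of 32 were near background and 7 bright; with the bound at the 75th percentile the share near background dropped from 21.9% to 3.12%. Its probe set 13 (PSR03036883.hg.1) read 5.01, 5.04 and 4.88, and probe sets 14 and 15 just after it read 12.11 and 12.13. SRSF4 had 7 of 22 near background, from -5.90 for probe set 13 to 3.58 for probe set 15.

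CLK1 and CLK4 are kinases of SR proteins. The last 5 of the 33 exon probe sets of CLK1 averaged 3.99, 4.21 and 4.17, all near background, while its first 28 averaged 8.69, 8.77 and 8.77 with 4 near background. Its extremes were -4.96 at the 3′-most probe set and 2.85 at probe set 17. CLK4 had 13 of 41 near background and none of its stretches was longer than 2, with a range of -4.98 to 2.88. Its gene level was 7.80, and on SCR array 1 it only just passed the threshold (7.7497 against 7.7471).

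Apoptosis and cell cycle genes held 28 retained members of 35, with 146 of 744 exon probe sets near background (19.6%). MDM4, a p53 inhibitor, had 22 of 60 near background and 17 bright. Its first 36 probe sets averaged 9.59, 9.64 and 9.71. The next 23 averaged 6.02, 5.89 and 5.88, with 18 near background and none bright. The last, PSR01026465.hg.1, read 12.92, 12.91 and 13.02, while the one before it, PSR01026464.hg.1, read 3.17, 3.40 and 3.17. These 2 were the highest and the lowest of the gene, at 4.67 and -5.03.

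The apoptosis inhibitor BCL2L1, whose short and long forms act in opposite ways, had 4 of 17 near background, from -3.23 (probe set 11) to 3.16 (probe set 4). CDKN2A, a locus with alternative first exons for p16INK4a and p14ARF, had 7 of 24. Its 5′-most probe set read 3.82, 4.63 and 3.54 and its highest, probe set 10, read 13.45, 13.49 and 13.40. The survivin gene BIRC5 had 3 of 11, from -2.66 to 2.23.

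Metabolic and mitochondrial genes held 22 retained members of 30, with 148 of 639 exon probe sets near background (23.2%). A further 101 were bright (15.8%, against 6.66% over all retained genes). The pyruvate kinase gene PKM has a pair of mutually exclusive exons that give its M1 and M2 forms. In this line 7 of 24 exon probe sets were near background (29.2%), a share that dropped to 4.17% with the bound at the panel's 75th percentile. From the 5′ end, probe sets 6 to 9 averaged 7.06, 7.09 and 7.09, probe sets 10 to 18 averaged 12.46, 12.46 and 12.49, probe sets 19 and 20 averaged 8.13, 7.89 and 7.93, and probe sets 21 to 24 averaged 11.65, 11.59 and 11.56. The highest mean in probe sets 6 to 9, 19 and 20 was 8.34 and the lowest in 10 to 18 and 21 to 24 was 11.12; of the lower ones all but probe set 19 were near background, and of the higher ones 5 were bright, all in 10 to 18. The files do not tie any of these probe sets to an exon number. The lowest was probe set 8 at -5.44 and the highest probe set 16 at 2.94.

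LDHA, which makes a lactate dehydrogenase subunit, had 11 of 28 near background and 12 bright, with a range of -4.51 to 3.34. In ATP5MC2, an ATP synthase subunit gene, 6 of 15 were near background, and its lowest and highest, at -4.11 and 3.75, were neighbours. SLC25A3, the mitochondrial phosphate carrier with mutually exclusive exons, had 7 of 24, from -3.80 to 2.54.

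Genes with neural or muscle exons were mostly under the gene threshold: 13 of 34 were retained, with 132 of 625 exon probe sets near background (21.1%). The ankyrin gene ANK3, whose products anchor membrane proteins to spectrin, had 29 of 101 near background in 8 stretches. Its probe sets 13 to 35 were even, between 7.43 and 9.79, whereas probe sets 90 to 94 averaged 4.64, 4.51 and 4.71, and its extremes were -5.13 and 3.67. The cell adhesion genes NRCAM and NCAM1 had 17 of 60 and 9 of 37 near background. NRCAM ran from -4.99 to 4.09 and NCAM1 from -5.66 to 2.37. In MAPT, which encodes the microtubule protein tau, 5 of 35 were near background, at a gene level of 7.84, and relative signal ran from -2.08 to 2.37. MEF2D, a transcription factor with a muscle exon, had 6 of 24, from -1.91 to 2.07.

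Chromatin and transcription genes held 29 retained members of 40, with 278 of 1347 exon probe sets near background (20.6%). TCF4, a basic helix-loop-helix factor with many alternative first exons, had 15 of 40. At the 5′ end the first probe set (PSR18005510.hg.1) read 4.23, 4.61 and 4.65, the lowest of the gene, and the third (PSR18005508.hg.1) read 12.11, 12.03 and 12.09, the highest. The third lay between pairs that were near background, probe sets 1 and 2 and probe sets 4 and 5. The histone variant gene MACROH2A1 has a pair of mutually exclusive exons. It had 12 of 41 near background, with the first 3 among them, and ran from -5.29 to 3.05. The lysine demethylase gene KDM1A, which has a neuronal microexon, had 3 of 27, and its last probe set read 3.38, 3.18 and 2.90, at -7.02, against a highest of 2.07. DNMT3B, a DNA methyltransferase, had 5 of 30 near background and none bright, from -2.41 to 1.95.

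**Figure D5:**
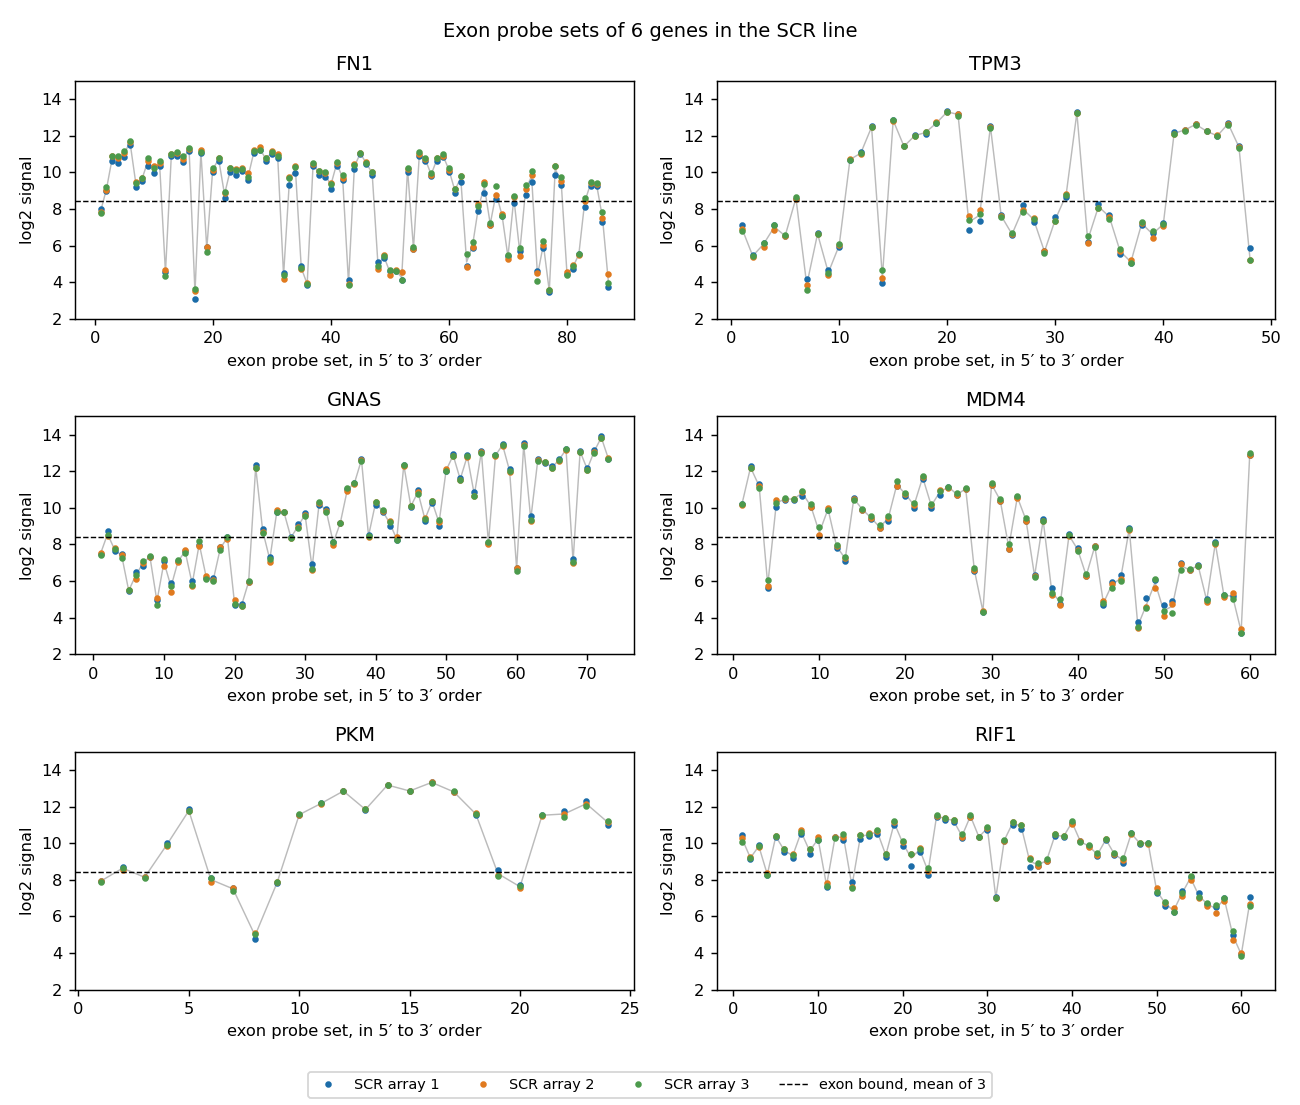
Log2 signal (y) of every exon probe set of FN1, TPM3, GNAS, MDM4, PKM and RIF1 in 5′ to 3′ order (x). Points are the 3 SCR arrays, the grey line joins their means and the dashed line is the exon bound averaged over the arrays. The 3 points of a probe set mostly overlap; GNAS is dim over its first 22 probe sets and RIF1 over its last 12.

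Long dim stretches were found beyond the genes named so far. HNRNPH1, an hnRNP that binds G-rich RNA, had a stretch of 13, which became 11 when probe sets with identical values were counted once. Its first 16 probe sets averaged 7.35, 7.34 and 7.41 with 15 near background, and the other 58 averaged 10.67, 10.79 and 10.86. RIF1, a replication timing and DNA repair factor, was dim over its last 12 of 61, at 6.60, 6.48 and 6.58, after 49 that averaged 9.85, 9.96 and 9.97. In HADHB, a subunit of the mitochondrial trifunctional protein, the first 11 of 36 were near background, at 6.93, 7.02 and 6.98, and the other 25 averaged 9.36, 9.54 and 9.44. The adhesion G protein-coupled receptor gene ADGRL2 was dim over its first 9 of 49, at 4.81, 4.92 and 4.67. GIGYF2, a translational repressor, held a stretch of 10 inside the gene, probe sets 27 to 36, which averaged 5.34 between neighbours at 9.33 and 9.82. With the bound at the 75th percentile the longest stretches of HNRNPH1, RIF1 and HADHB were 4, 7 and 5, while those of ADGRL2 and GIGYF2 were still 9 and 10. The extremes of these 5 genes were -6.99 and 3.41 for HNRNPH1, -5.34 and 2.23 for RIF1, -3.11 and 2.46 for HADHB, -5.54 and 3.75 for ADGRL2, and -5.53 and 4.95 for GIGYF2.

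Spread of exon probe sets was also ranked among genes with at least 10 of them, outside the textbook and list genes named above. Antisense, clone, olfactory receptor and uncharacterized symbols were left out. The 5 genes of widest spread had 11 to 18 exon probe sets. The SD of relative signal was 3.58 for POMP, a proteasome assembly factor, 3.53 for CSTL1, a cystatin-like gene, 3.52 for TUBA1C, an alpha-tubulin, 3.45 for LDHB, a lactate dehydrogenase subunit, and 3.37 for ATP5F1C, the gamma subunit of ATP synthase. POMP ran from 2.80, 2.86 and 2.72 at its 3′-most probe set to 13.32, 13.40 and 13.42 at the second from the 5′ end. TUBA1C was dim over its first 5 of 14, at 6.32, 6.19 and 6.23, and averaged 11.16, 11.29 and 11.32 over the other 9, with extremes of -5.70 and 4.10. LDHB ran from -6.05 to 3.71 and ATP5F1C from -7.06 to 2.64. CSTL1 held 5 near background and 3 bright of 11; its highest was at 5.48 and its lowest, which read 4.32, 4.46 and 4.54, at -4.09. Several of these genes, and LDHA, MYL6 and TPM3 above, have near-identical relatives or processed copies, so a bright probe set can hold signal of another locus.

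Junction probe sets of the same genes also ranged from near background to bright. In PKM 8 of 25 were near background, the lowest (JUC15013455.hg.1) at 3.98, 3.91 and 3.76 and the highest (JUC15013458.hg.1) at 13.27, 13.24 and 13.35. MDM4 had 26 of 49 near background, from -5.48 to 3.69, and TPM3 13 of 29, from -6.06 to 4.33. In FN1 14 of 59 were near background and 18 bright, and in GNAS 14 of 43 and 13. DNMT3B had 18 of 33 near background and none bright, and BIRC5 8 of 11. MACROH2A1 was at the other end, with 2 of 24. The junction probe sets named in this paragraph, and their genes, were chosen after their values were seen.

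The most extreme exon probe sets over all retained genes were also chosen after their values were seen. The lowest relative signal was -8.14, for a probe set of the translation initiation factor gene EIF2S3 (PSR0X001517.hg.1) that read 3.11, 3.18 and 3.01. Next came USP9X, a deubiquitinase gene, at -8.13 and PA2G4 at -8.09. At the other end a probe set of the reticulon gene RTN2 (PSR19022173.hg.1) read 14.40, 14.37 and 14.37, a relative signal of 6.53, followed by PLEKHO1 at 6.38. Both of these were above the 12.06 of the array's brightest background probes.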

How the data were processed

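Total RNA of 3 SCR samples was hybridized to the Human Transcriptome Array 2.0. Per the labels the authors normalized the arrays with RMA in Affymetrix Expression Console (the sources used here give neither versions nor a genome build), which corrects background, quantile normalizes and takes the log2 scale; the deposited log2 values were used as they are. Quantile normalization makes the arrays' distributions alike, and summaries of few probes per exon leave probe effects in place. Symbols came from the platform annotation, with 2474 updated through RefSeq (GRCh38.p14); probe sets with several symbols or none were left out. Relative signal, bounds, stretches and profiles were computed in Python 3.11.15 with pandas 2.3.3 and numpy 2.4.6. No test was run. The number of arrays limits the precision.

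The members and lists were chosen with earlier results of these data known. Named genes were first 28 textbook examples (23 retained, 1 below the threshold and 4 with no exon probe set of 1 symbol). Outside these, the 2 genes per list with the highest share near background were named, among those with at least 8 exon probe sets. Among the remaining genes with at least 10, the 5 with the longest stretch (ties in alphabetical order) and the 5 with the largest SD were named. Antisense, clone, olfactory receptor and uncharacterized symbols were left out of both of these choices. Stretches whose means are given were placed after the values were seen. Alternatives were the gene's median, other background percentiles, another distance, other gene filters, identical copies counted once and each array left out.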

Additional observations from a re-analysis of the deposited data

Results flagged for a closer look

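Probe sets without a symbol in the annotation used here were in none of the descriptions, and some were bright. Of 165210 such exon probe sets, 2045 (1.24%) had a mean above 12.06, the level of the array's brightest background probe set, and so did 489 of 36277 junction probe sets (1.35%). The same was true of 2.07% of exon and 1.99% of junction probe sets with 1 symbol. No control sample was available for this signal.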

How the results depend on the processing

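No paired analysis was possible because only 1 group of samples was used and no comparison between groups was made. Leaving out each array in turn gave 44613 to 45231 exon and 58213 to 58524 junction probe sets near background, 15259 to 15591 and 14103 to 14403 bright ones, and 7505 to 7665 stretches, all within 1.5 times the values reported. A gene or probe set had to pass on every array used, so leaving 1 out can only add genes and called probe sets. Without replicate 1, 9450 genes were kept against 9372. With the gene's median as its level, bright probe sets fell to 8763 (exon) and 8369 (junction) and the median SD within genes was 1.55. A distance of 1.5 on both sides gave 30345 and 24817 bright probe sets and 4517 stretches. Keeping genes down to a level of 5 gave 73988 and 90988 near background, 25165 and 26457 bright, 12714 stretches and a difference of the last minus the first part of genes of -0.58; with no filter on gene level these were 76911, 94395, 26300, 28184, 13224 and -0.59, with a median SD of 1.51. More genes enter under both settings (16227 and 17130), and the shares near background stayed at 20.5% and 20.4% for exons. With the background at 12 G or C bases as the bound, chosen after seeing the data, 1466 exon and 6484 junction probe sets and 24 stretches were left. Among the 49 named genes, the share near background moved by over 1.5 times in 12 with the bound at the 75th percentile (ENAH, DNM2, TRA2B, PKM, SLC25A3, MYL6, BIRC5, ATP5MC2, LDHA, MACROH2A1, HNRNPH1 and ATP5F1C, all lower), in 11 at a distance of 1.5 (FGFR1, FGFR2, BCL2L1, MAPT, DNMT3B, MYL6, VTI1A, CLK4, CDKN2A, HADHB and GIGYF2, all lower) and in 3 with the bound at the 95th percentile (SRSF3, SLC25A3 and KDM1A, all higher). It moved in 1 each with the gene's median (INSR), without replicate 1 (INSR) and without replicate 2 (SRSF3). With the gene's median 46 of the 49 were retained, and TPM3, CLK4 and CSTL1 were not. The array's background by base composition limits what a dim or bright probe set shows.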
